A study of Sthenoteuthis oualaniensis with 24 samples.

Results

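The intestine and stomach of the immature DF of SA were compared. SA is *Sthenoteuthis oualaniensis*, the purpleback flying squid, and DF is its dwarf form, the smaller of the forms caught in the South China Sea. DUI is the intestine of the immature DF, and DUS is its stomach. Each group held 3 RNA-Seq libraries, so 6 of the 24 libraries of the series were used, chosen by their titles (DUI_1 to DUI_3 and DUS_1 to DUS_3). The squid were wild animals with no treatment, and immature means maturity stages I and II. The study sampled both tissues from the same animals, 3 per stage and form, but no source says that the library numbers mark the animal. The values are in FPKM, which scales the fragments of a unigene by its length and by the mapped fragments of the library. A unigene is 1 assembled transcript sequence of the DF. Of 68627 unigenes of the DF, 48664 averaged 0.5 FPKM or more over these 6 libraries and were tested. Of these, 9379 averaged 10 FPKM or more, and they are also given separately.

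In squid, food passes from the oesophagus into a muscular stomach with a lining of cuticle. There it is mixed with enzymes that are mostly made in the digestive gland. Digested material then moves on to the caecum, where much of the uptake of nutrients takes place. The intestine has a ciliated epithelium rich in mucus cells, takes part in absorption and leads waste to the anus. The files give unigene IDs without gene names or sequences. The tissue labels could therefore not be checked with marker genes, and no unigene is given a function here.

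A DUI library had 40460 to 40658 unigenes at 1 FPKM or more and a DUS library 28171 to 28270. At 10 FPKM or more, there were 10443 to 10485 in a DUI library and 8165 to 8251 in a DUS library. Libraries were correlated across unigenes on log2(FPKM + 0.5). For the 9379 more abundant unigenes, the correlation was 0.96 within DUI, 0.98 to 0.99 within DUS and 0.50 to 0.52 between a DUI and a DUS library. Over all 48664 tested unigenes, it was 0.79 within DUI, 0.92 to 0.95 within DUS and 0.70 to 0.72 between the tissues. The files hold no read counts. If low values are whole reads, 1 read was worth 3.24 to 3.42 times as much in the DUI libraries as in DUS_2 and DUS_3, and 1.34 to 1.41 times as much as in DUS_1. The values of unigenes with few reads were thus coarser in DUI. The variance between libraries was 1.01 to 1.20 times that of counting reads in DUI and 1.15 to 2.12 times in DUS. These mean ratios fell to 0.75 to 0.77 in DUI and 0.90 to 0.92 in DUS without the 1 in 100 unigenes of highest ratio. Leaving out the highest ratios lowers such a mean in any data. P-values therefore measure the spread between these libraries, which may be technical, and the main counts are also given with DUI counted as 1 sample. That alternative still takes its spread from the 3 DUS libraries, so it does not cover a technical spread in DUS.

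The comparison asks which unigenes differ between the intestine and stomach before maturity. A unigene was called when its adjusted p from limma was under 0.05 and its log2 fold change, DUI over DUS, was at least 1 in size. Fold changes were computed on log2(FPKM + 0.5), and the added 0.5 shrinks those of low unigenes. Over all tested unigenes, 14176 of 48664 (29.1%) were called. Of the tested unigenes, 11812 (24.3%) were higher in the intestine and 2364 (4.86%) were higher in the stomach. In such whole-tissue samples, fewer cells of a type and less RNA per cell cannot be told apart. With DUI as 1 sample, 13622 were called, with 11895 higher in the intestine and 1727 higher in the stomach. The excess of intestine calls depended on the scaling. With quantile normalization, 5192 were higher in the intestine and 5112 in the stomach, and with median-of-ratios scaling the counts were 7522 and 4378. The median log2 fold change of all tested unigenes was 0.68 as deposited, 0.05 after quantile normalization and 0.25 after median-of-ratios scaling.

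Among unigenes of 10 FPKM or more, 2875 of 9379 (30.7%) were called. The intestine was higher for 1884 of them (20.1% of those tested) and the stomach for 991 (10.6%). With DUI as 1 sample, 2592 were called, with 1645 higher in the intestine and 947 in the stomach. The 3 DUI and the 3 DUS values overlapped for none of the 2875, as the call all but requires. Of all 9379, called or not, 4618 had every DUI value above every DUS value and 2505 had the reverse. Which tissue had more calls again depended on the scaling. Quantile normalization gave 1434 higher in the intestine and 1279 in the stomach, and median-of-ratios scaling gave 1083 and 1968, the other way round. The median log2 fold change at this level was 0.25 as deposited, 0.03 after quantile normalization and -0.33 after median-of-ratios scaling. The unigenes next to the 10 FPKM limit were alike, with 33.8% called at 8 to 10 FPKM and 32.2% at 10 to 12 FPKM. Next to the lower limit, unigenes of 0.5 to 0.6 FPKM had a median level of 0.955 FPKM in DUI and 0.137 FPKM in DUS. Those just outside it, at 0.4 to 0.5 FPKM, had 0.805 FPKM in DUI and 0.0841 FPKM in DUS.

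**Figure D1:**
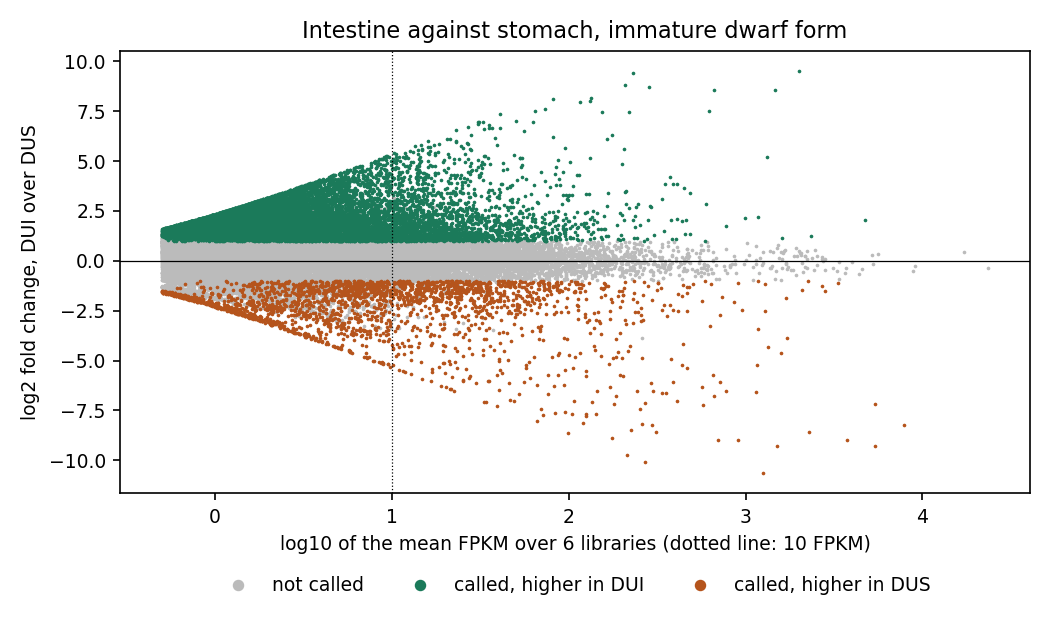
Each point is 1 of 48664 tested unigenes, with its mean level over 6 libraries (log10 of FPKM) on the x axis and its log2 fold change, DUI over DUS, on the y axis. Called unigenes are coloured by the tissue where they were higher (11812 in the intestine, 2364 in the stomach), in the values as deposited, and calls in the stomach become more frequent toward the right (after quantile normalization the counts are 5192 and 5112).

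In the deposited values, the direction of the difference changed with abundance. At 0.5 to 2 FPKM, 21.5% of 23138 unigenes were called higher in the intestine and 2.17% higher in the stomach, and at 2 to 10 FPKM these shares were 30.7% and 5.39% of 16147. At 10 to 50 FPKM they were 21.7% and 9.09% of 7282. The shares were close at 50 to 200 FPKM, with 15.4% higher in the intestine and 13.9% higher in the stomach among 1625 unigenes. At 200 FPKM or more, 55 of 472 unigenes (11.7%) were higher in the intestine and 103 (21.8%) were higher in the stomach. The median log2 fold change in these 5 classes, from low to high, was 0.96, 0.64, 0.32, 0.08 and -0.18. With DUI as 1 sample, the shares higher in the intestine and in the stomach were 32.3% and 0.661% at 0.5 to 2 FPKM and 17.2% and 3.88% at 2 to 10 FPKM, so the class with the larger share of intestine calls changed. Quantile normalization, which gives all libraries the same distribution, took most of this pattern away. The medians then lay between -0.04 and 0.14 in the 5 classes, and at 200 FPKM or more 74 unigenes (15.7%) were higher in the intestine and 88 (18.6%) in the stomach. With median-of-ratios scaling the pattern remained, with medians of 0.67 in the lowest and -0.77 in the highest class, and the stomach had more calls in each class from 10 FPKM. The value of 1 read also differed between the tissues, as given above. Among unigenes listed at 0 in some but not all libraries of a group, the smallest value above 0 had a median of 1.78 FPKM in DUI. In DUS this median was 0.563 FPKM. If low values are whole reads, a unigene could thus pass the limit of 0.5 FPKM on few reads in DUI alone. The part of this in the pattern was not tested.

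**Figure D2:**
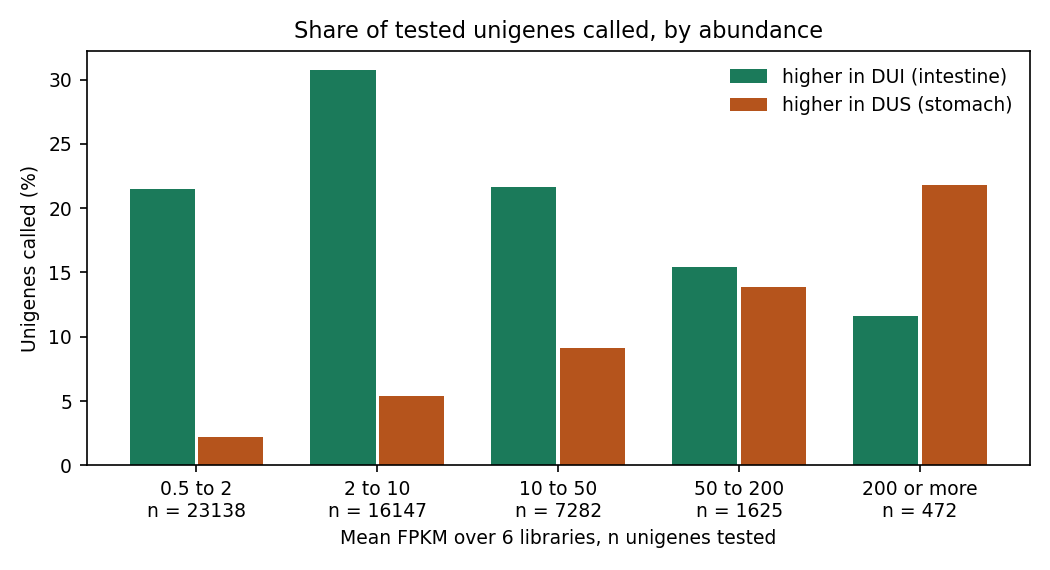
Bars give the share of tested unigenes (%) called higher in the intestine (DUI) and higher in the stomach (DUS) in 5 classes of mean FPKM, with the number tested under each class. The intestine share exceeds the stomach share in the 4 lower classes, and at 200 FPKM or more it is smaller (11.7% against 21.8%), a pattern that quantile normalization mostly removed.

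Many unigenes of 10 FPKM or more differed little between the tissues in the values as deposited. For 5036 of 9379 (53.7%), the unadjusted 95% interval of the fold change lay inside a 2-fold difference in either direction. At 200 FPKM or more this held for 300 of 472 (63.6%). The most abundant unigene of both tissues was such a case, with 20584, 20393 and 20782 FPKM in DUI and 26582, 26528 and 26931 FPKM in DUS. All DUS libraries were above all DUI libraries, but its log2 fold change was only -0.37 ± 0.01 (SE). The same held for the third most abundant unigene of DUI, at 8233, 8225 and 8255 FPKM in DUI and 9970, 9911 and 9925 FPKM in DUS (log2 fold change -0.27).

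Other differences were very large. At least 8-fold, 405 unigenes of 10 FPKM or more were called higher in the intestine and 241 higher in the stomach, but median-of-ratios scaling gave 289 and 330. At least 32-fold, the counts were 101 and 114. They were 63 and 129 after quantile normalization, 66 and 143 with median-of-ratios scaling and 53 and 93 at a pseudocount of 1 FPKM. At least 128-fold, they were 17 and 38. Of the 17, 1 was listed at 0 in the 3 DUS libraries, and of the 38, 7 were listed at 0 in the 3 DUI libraries. For those listed at 0, the size of the fold change is set by the added 0.5 FPKM. It also weighs on others, since the 17 had a median level of 0.537 FPKM in DUS and the 38 of 1.05 FPKM in DUI. At 128-fold or more, the stomach had more calls than the intestine also after quantile normalization (16 and 41), with median-of-ratios scaling (13 and 50), at a pseudocount of 1 FPKM (13 and 25) and with DUI as 1 sample (17 and 35).

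Unigenes higher in the stomach made up a large part of its expression. The 241 that were at least 8-fold higher took 0.279% to 0.284% of the summed FPKM of the DUI libraries and 13.9% to 14.1% of that of the DUS libraries. The 38 at 128-fold or more took 0.0258% to 0.0273% in DUI and 7.97% to 8.13% in DUS. Their median level was 1.05 FPKM in DUI and 392 FPKM in DUS. The strong calls of the intestine took a smaller share, although the median level of the 17 at 128-fold or more was 309 FPKM in DUI. The 405 that were at least 8-fold higher there took 5.15% to 5.16% of the summed FPKM in DUI and 0.194% to 0.200% in DUS, and the 17 at 128-fold or more took 1.58% to 1.60% in DUI and 0.002% to 0.005% in DUS. Since these unigenes were chosen by their fold change, the shares describe them and test nothing. The 6504 unigenes of 10 FPKM or more that were not called held 63.0% to 63.1% of the sum in DUI and 62.1% to 62.2% in DUS.

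By the rule for named unigenes, the most abundant called unigene of the intestine was CL26871Contig1, the fourth most abundant of DUI. It had 7213, 7959 and 7747 FPKM in DUI and 1789, 1898 and 1896 FPKM in DUS. Its level was thus high in both tissues and 4.10 times as high in the intestine, with no overlap (log2 fold change 2.04 ± 0.04 SE, adjusted p = 1.62e-06 from limma, and 0.00186 with DUI as 1 sample).

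The largest fold change among unigenes above 0 in all 6 libraries and higher in the intestine was that of CL64105Contig1. It had 3994, 3971 and 3990 FPKM in DUI and 3.53, 5.32 and 6.26 FPKM in DUS. It was thus the ninth most abundant unigene in the intestine and low in the stomach, where its rank was 12747. The ratio of the means was 791 (log2 fold change 9.52 ± 0.18 SE, adjusted p = 1.23e-06 from limma, and 0.00178 with DUI as 1 sample).

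In the stomach, the most abundant called unigene was CL40016Contig1, the second most abundant of DUS. It had 47.5, 54.2 and 54.2 FPKM in DUI and 15423, 15666 and 15772 FPKM in DUS. It was still present at a moderate level in the intestine, with rank 2045. The stomach mean was 300.5 times the intestine mean (log2 fold change -8.22 ± 0.05 SE, adjusted p = 3.94e-08 from limma, and 6.9e-05 with DUI as 1 sample).

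The largest fold change toward the stomach, again among unigenes above 0 in all 6 libraries, was that of CL62665Contig1. It had 3.59, 5.47 and 3.87 FPKM in DUI and 3006, 3037 and 2996 FPKM in DUS. In the stomach it ranked 30 and in the intestine 18532. The ratio of stomach to intestine means was 699 (log2 fold change -9.31 ± 0.14 SE, adjusted p = 5.16e-07 from limma, and 1.54e-06 with DUI as 1 sample).

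**Figure D3:**
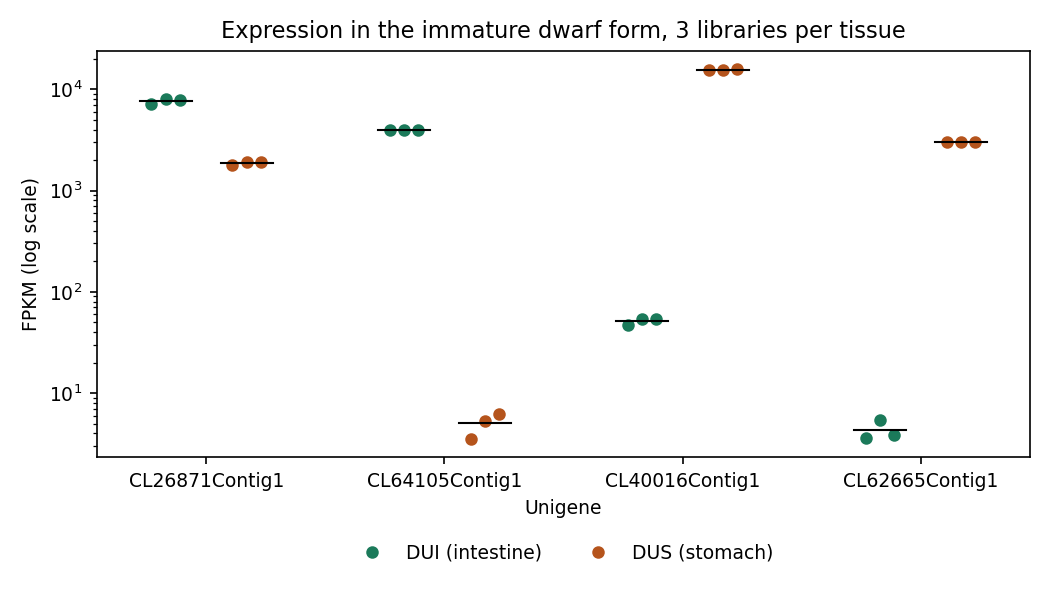
Points are the FPKM values of single libraries on a log scale for 4 named unigenes, with 3 DUI (intestine) points left of 3 DUS (stomach) points, and black lines mark the group means. CL26871Contig1 is high in both tissues, and CL64105Contig1 is far higher in the intestine (3971 to 3994 FPKM in DUI and 3.53 to 6.26 FPKM in DUS). The stomach unigenes CL40016Contig1 and CL62665Contig1 are far higher in the stomach (3.59 to 5.47 FPKM in DUI and 2996 to 3037 FPKM in DUS for CL62665Contig1).

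The most abundant unigenes of the tissues overlapped in part. Of the 10 most abundant in each, 5 were shared, and none of the shared ones was called. The other 5 of the stomach held 4 that were called higher there, against 2 of the other 5 of the intestine. Beside CL40016Contig1, these 4 were the unigenes of rank 4, 5 and 8 in DUS, and all 4 were more than 128-fold lower in DUI. The unigene of rank 4 had 19.9, 10.9 and 21.3 FPKM in DUI and 10752, 10650 and 10754 FPKM in DUS. The one of rank 5 had 77.5, 80.1 and 64.2 FPKM in DUI and 10173, 10530 and 11252 FPKM in DUS. The one of rank 8 had 12.5, 18.2 and 13.1 FPKM in DUI and 7456, 7535 and 7446 FPKM in DUS. Among the leading 10 of the intestine, by contrast, only CL64105Contig1 was more than 128-fold lower in the stomach.

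The same direction was seen in the lists of 100, and hardly in those of 1000. Of the 100 most abundant unigenes, 72 were shared. Of the 28 found only in the list of the intestine, 12 were called higher there, and of the 28 found only in the list of the stomach, 27 were called higher there. Of the 1000 most abundant, 677 were shared. Of the 323 others in each tissue, 218 were called higher in the intestine and 223 in the stomach. The share of all tested unigenes of 10 FPKM or more that was called in these directions was 20.1% and 10.6%, but the lists rank the same values as the calls. Expression was also more concentrated in the stomach. The 10 most abundant unigenes took 10.7% to 10.8% of the summed FPKM in DUI and 13.8% to 14.0% in DUS, and the 100 most abundant took 31.1% to 31.2% in DUI and 38.8% to 39.1% in DUS.

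**Figure D4:**
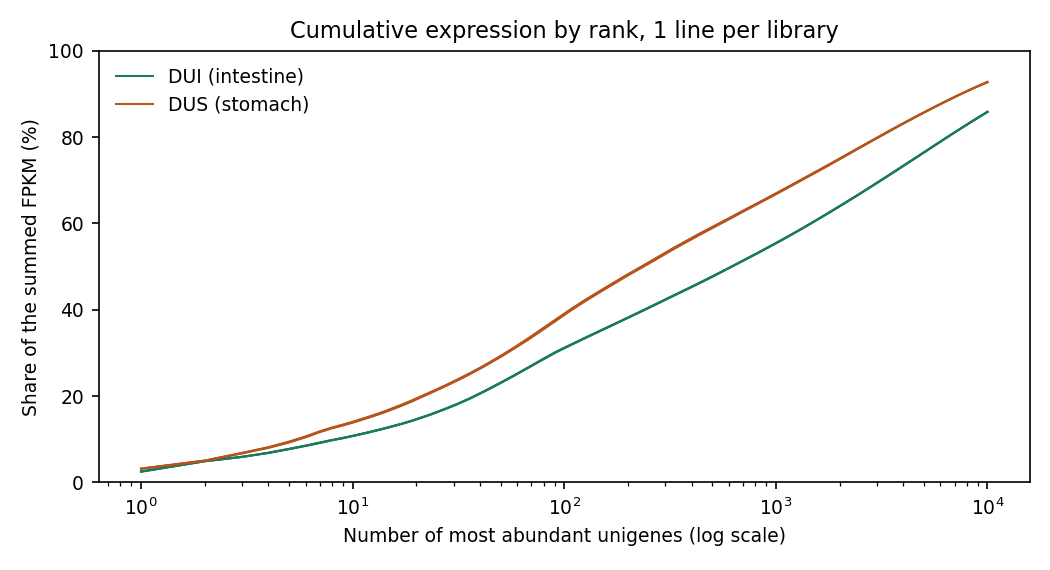
Lines give the share of the summed FPKM (%) held by the most abundant unigenes of a library, by their number on a log scale, with 1 line for each of 3 DUI and 3 DUS libraries. The lines of a tissue lie on each other, and at 100 unigenes the DUI libraries are at 31.1% to 31.2% and the DUS libraries at 38.8% to 39.1%.

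Unigenes listed at 0 throughout 1 tissue were few among abundant ones. At 10 FPKM or more in each DUI library, 20 were listed at 0 in the 3 DUS libraries, with means in DUI of 12.3 to 82.3 FPKM (median 18.7). At 10 FPKM or more in each DUS library, 29 were listed at 0 in the 3 DUI libraries, with means in DUS of 11.9 to 543 FPKM (median 25.5). The first count rose to 32 without DUI_3, to 34 without DUS_2 and to 38 without DUS_3. The second count rose to 41 without DUI_1, to 38 without DUI_2 and to 41 without DUI_3, and was 32 to 34 without a DUS library. With values under 0.5 FPKM in place of 0 the first count was 117, while the second count was then 32. A level below that of 1 read cannot be seen, and this limit was higher in DUI.

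Unigene IDs carry a cluster number from the assembly, and a cluster can hold several contigs. Contigs of 1 cluster are similar sequences, and reads can be split between them in an unknown way. Of 60 clusters with 2 or more contigs at 10 FPKM or more, 30 had no called contig, 13 had all contigs called in the same direction and 16 had called and uncalled ones. The last cluster had contigs in opposite directions. Its first contig had 800.2, 796 and 821 FPKM in DUI and 1770, 1809 and 1787 FPKM in DUS, and was called higher in the stomach (log2 fold change -1.15, adjusted p = 4.03e-07 from limma). Its second contig had 22.9, 25.8 and 23.6 FPKM in DUI and 4.93, 2.24 and 2.63 FPKM in DUS, and was called higher in the intestine (log2 fold change 2.77, adjusted p = 0.000536). The less abundant contig thus ran against the more abundant one, and their levels are uncertain where reads fit both.

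The mature DF gave libraries that did not enter the calls. DDI is the intestine and DDS the stomach of the mature DF (stages III to V), again with 3 libraries each. Among the 9379 unigenes of 10 FPKM or more, the log2 ratios of intestine to stomach in the immature and the mature DF had a Pearson correlation of 0.82 across unigenes, which are not independent replicates. Of the 1884 unigenes called higher in the intestine of the immature DF, 1831 (97.2%) were also higher in the intestine of the mature DF. At least 2-fold, it was 1591 of the 1884 (84.4%). Of the 991 called higher in the stomach, 843 (85.1%) were also higher in the mature stomach. At least 2-fold, it was 547 of the 991 (55.2%). Over all 9379 unigenes, 66.8% were higher in the mature intestine, 32.2% at least 2-fold, and 9.27% were at least 2-fold higher in the mature stomach. The gap between the directions narrowed after quantile normalization, to 70.7% and 67.0% at least 2-fold in the same direction.

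**Figure D5:**
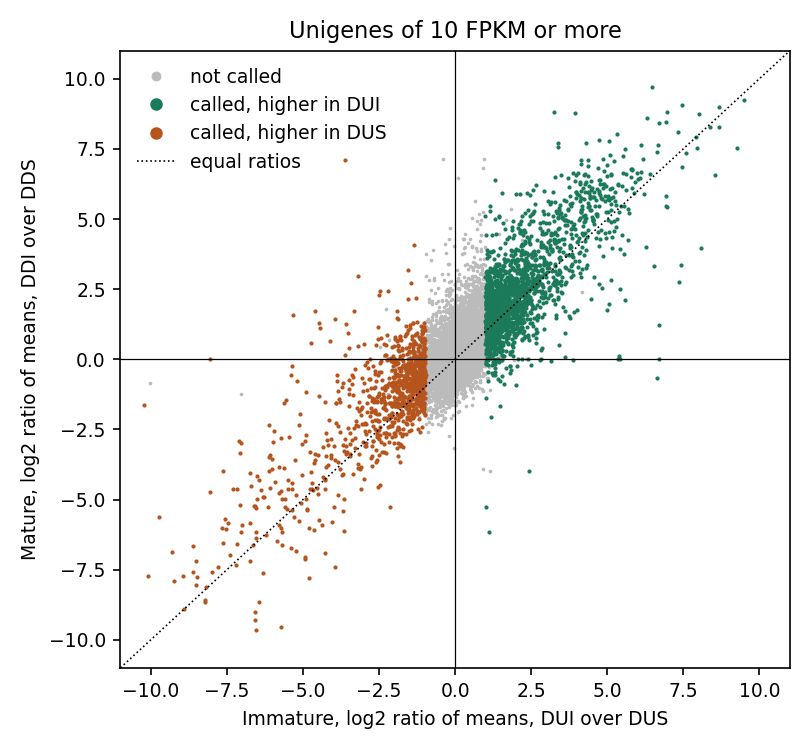
Each point is 1 of 9379 unigenes of 10 FPKM or more, with its log2 ratio of group means in the immature DF (DUI over DUS) on the x axis and in the mature DF (DDI over DDS) on the y axis. Most called unigenes keep their direction (1831 of 1884 for the intestine, 843 of 991 for the stomach), and a few lie in the opposite quadrants.

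The named unigenes kept their direction in the mature DF. CL26871Contig1 had 9304, 9825 and 9479 FPKM in DDI and 2495, 2419 and 2300 FPKM in DDS. CL64105Contig1 had 2936, 2937 and 3074 FPKM in DDI and 3.97, 3.86 and 5.42 FPKM in DDS. The difference of either unigene between the tissues was not shown to depend on the stage (interaction of 0.05 ± 0.06 and 0.27 ± 0.24 SE on the log2 scale, adjusted p = 0.619 and 0.490 from limma over 12 libraries). CL40016Contig1 had 36.9, 48.6 and 47.4 FPKM in DDI and 16478, 18985 and 19137 FPKM in DDS, and CL62665Contig1 had 5.13, 6.11 and 4.32 FPKM in DDI and 639, 671 and 671 FPKM in DDS. For CL62665Contig1 the stomach level was thus several times higher in the immature DF, and the interaction was -2.44 ± 0.20 SE (adjusted p = 2.4e-05 from limma). The 4 named unigenes were chosen by immature values that also enter the interaction.

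Whether the difference between the tissues differs between the immature and mature DF was tested for the 47743 unigenes that averaged 0.5 FPKM or more over all 12 DF libraries. The interaction passed for 7120 (14.9%), with a larger intestine to stomach ratio in the immature DF for 1525 and a smaller one for 5595. The median interaction of all unigenes tested was -0.42 on the log2 scale. After quantile normalization it was 0.07, and the counts were 2242 and 2540. Of the 1884 unigenes called higher in the intestine, 479 (25.4%) passed, 125 with a larger and 354 with a smaller intestine to stomach ratio in the immature DF. Of the 991 called higher in the stomach, 366 (36.9%) passed, 333 with a smaller and 33 with a larger such ratio in the immature DF. The 125 hold 6 unigenes at least 2-fold higher in the mature stomach. The 333 hold 31 at least 2-fold higher in the mature intestine. The 1884 and the 991 were chosen by immature values that also enter the interaction, and the counts are for the values as deposited. In DDS, 1 read was worth more than in DUS, by 3.04 times in DDS_2 against DUS_2, and 1.05 times as much in DDI_2 as in DUI_2. Its part in these counts was not tested.

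A small set had group means that turned direction with the stage. Of the 991 unigenes called higher in the immature stomach, 34 were at least 2-fold higher in the mature intestine. The difference in the mature DF was not tested, and for some of the 34 it rests on values near 0. For example, 1 of them had 0, 3.01 and 0 FPKM in DDI and 0 in each DDS library. Several others were above 0 in DDS_2 but listed at 0 in DDS_1 and DDS_3. The most extreme of the 34 was chosen after its values were seen. It had 28.2, 26.6 and 31.8 FPKM in DUI and 362, 357 and 360.4 FPKM in DUS. In the mature DF it had 91.6, 94.9 and 97.5 FPKM in DDI and 0, 0.407 and 0.173 FPKM in DDS. Its level in the stomach was thus high in the immature DF and close to 0 in the mature DF, while it was present in the intestine at both stages. Of the 1884 unigenes called higher in the immature intestine, 6 were at least 2-fold higher in the mature stomach. After quantile normalization the counts were 21 of the intestine unigenes and 16 of the stomach unigenes, so which set turned more often depended on the scaling. Both sets were chosen by opposite differences at the stages, which fixes the sign of their interaction, so no test is given. The most extreme intestine unigene had 76.7, 77.0 and 86.9 FPKM in DUI and 34.7, 35.8 and 38.6 FPKM in DUS, against 0, 0.496 and 0.589 FPKM in DDI and 55.2, 64.0 and 64.4 FPKM in DDS. Here it was the intestine that was close to 0 in the mature DF.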

How the data were processed

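The authors sequenced paired-end libraries, trimmed the reads, assembled the unigenes of each form with Trinity and deposited 1 FPKM value per unigene and library. For read mapping and FPKM, the programs were not stated in the methods or labels. For DUI against DUS (6 libraries) and for the interaction with maturity (12 libraries of the DF), limma 3.58.1 in R 4.3.3 was fitted to log2(FPKM + 0.5), with the prior variance following mean expression (trend) and without covariates, 2-sided, with Benjamini-Hochberg adjustment over all unigenes tested. The 12 libraries of the medium form belong to another assembly and were not used. Descriptive values were computed in Python 3.11.15. The read value was taken from the densest point of ratios between values of 0.02 to 2 FPKM, assuming whole reads, and the variance from unigenes of 10 to 1000 such reads. Total depth is unknown, because FPKM values hold no counts.

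The named unigenes were, in each direction, the called unigene of 10 FPKM or more with the highest mean in its tissue, and the one with the largest fold change among those above 0 in all 6 libraries. The members, the rule and the tests were chosen with earlier results of these data known. The code was tested on simulated data with known changes. Pseudocounts, filters, scalings, the trend, an unadjusted P, a block for the library number, DUI as 1 sample and leaving out each library were tried as alternatives.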

Additional observations from a re-analysis of the deposited data

Results flagged for a closer look

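The test of the difference between stages marked 4 results. The intestine to stomach ratio differed between the immature and mature DF for 7120 unigenes, and for 1674 of 9239 (18.1%) that averaged 10 FPKM or more in the DF. Among the named unigenes, CL62665Contig1 had an interaction of -2.44 ± 0.20 SE (adjusted p = 2.4e-05 from limma), with 2996 to 3037 FPKM in DUS and 639 to 671 FPKM in DDS. For CL40016Contig1 the interaction was 0.454 ± 0.141 SE (adjusted p = 0.0477 from limma), below the size of 1 asked for a call. Both unigenes were chosen by immature values that also enter the interaction. No group had the 4 libraries needed to look for a single outlying library.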

How the results depend on the processing

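Of 320 recomputed values, 283 were rated the same as the first value and 37 moved. Counts were rated the same within 1.5 times the first value, and shares inside its 95% interval. Fold changes of named unigenes were rated the same if they kept their direction and call. Each count was rated alone, so the tissue with more calls could change, as in the 8-fold calls. None of the 4 named unigenes lost its call or turned under any of 13 alternatives each (log2 fold change 1.44 to 2.39 for CL26871Contig1, 8.95 to 9.69 for CL64105Contig1, -8.81 to -8.16 for CL40016Contig1 and -9.87 to -9.17 for CL62665Contig1). Calls by class of abundance, also recomputed after seeing the data, moved below 10 FPKM after quantile normalization and were rated the same above it. With median-of-ratios scaling they moved from 2 FPKM, except the intestine calls at 200 FPKM or more. With DUI as 1 sample, calls below 10 FPKM moved, except the stomach calls at 2 to 10 FPKM. The 32-fold calls of the intestine changed under both scalings and at a pseudocount of 1 FPKM, and the counts that turned with maturity under quantile normalization, as given with them. Quantile normalization gave 5192 calls higher in the intestine and 5112 in the stomach over all unigenes, and 2540 interaction calls with a smaller ratio in the immature DF. It also moved the shares with the same direction in the mature DF to 93.5% (intestine) and 91.4% (stomach), and the 2-fold shares to 70.7% and 67.0%. Median-of-ratios scaling gave 7522 calls higher in the intestine and 4378 in the stomach over all unigenes, and 1083 and 1968 at 10 FPKM or more. The counts of 8-fold calls, an alternative chosen after seeing the data, were within 1.5 times the first count under both scalings, a pseudocount of 1 FPKM and DUI as 1 sample, with 289 to 405 in the intestine and 233 to 330 in the stomach. The number of intestine unigenes listed at 0 in the stomach was 117 with values under 0.5 FPKM, 96 from 5 FPKM and 24 to 38 without 1 library. The number of stomach unigenes listed at 0 in the intestine was 60 from 5 FPKM and 32 to 41 without 1 library. The cause of these changes was not tested.

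No pairing of the tissues by library number was detected. The deviations of DUI and DUS libraries with equal numbers correlated at -0.00098 to 0.00498 across unigenes. For most unigenes the spread within each tissue was near that of counting reads, so a pairing could go unseen. With the number as a replicate block, 12201 unigenes were called over all, 2866 at 10 FPKM or more and 5313 in the interaction. With an unadjusted P under 0.05, 15700 were called. Differences below a few reads could not be seen, and this limit was higher in DUI.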

Other observations

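A few unigenes were above 0 in libraries of 1 number only. The highest of them averaged 10 FPKM or more and was not called. It was listed at 0 in the 3 DUI libraries and in DUS_2 and DUS_3, and at 1558 FPKM in DUS_1. The next one, also not called, was likewise listed at 0 in those 5 libraries and at 197 FPKM in DUS_1. In the mature DF, the highest was listed at 666 FPKM in DDI_1 and 1203 FPKM in DDS_1, the next one at 75.1 FPKM in DDI_1 and 177 FPKM in DDS_1, and both at 0 in the libraries numbered 2 and 3. In all, 10 unigenes were above 0 in DUS_1, DDI_1 and DDS_1 and listed at 0 in DUI_1 and in each library numbered 2 or 3. Their values in DUS_1 ran from 1.81 to 1558 FPKM. Unigenes above 0 in at least 3 of the 4 libraries of 1 number and listed at 0 in all libraries of the others were found for each number. There were 16 for number 1, 28 for number 2 and 51 for number 3. The highest values differed, at 1558 FPKM for number 1, 10.8 FPKM for number 2 and 11.5 FPKM for number 3. These unigenes were looked at after their values were seen, and no source says what the library number stands for.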
